A study of Mus musculus with 13 samples.

Results

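The conjugation and xenobiotic defence genes are 39 mouse genes for enzymes that make foreign and reactive compounds soluble, and for pumps that carry the products out of the cell. They were chosen by name for these functions and not by a rule on measured values, but with earlier results of these data known. Each was read from the transcript cluster, the array's set of probes for a gene, that the annotation gives to that gene alone, taking the cluster with the highest mean over the arrays where there were several. Of the 39 listed genes, 37 were measured, among 19938 genes tested. Ugt1a1 appeared only in a cluster that names 8 genes, and Ces2c had no cluster in the annotation used here.

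The series compared rectal tissue on 13 Affymetrix Mouse Gene 1.0 ST arrays. Tumour and inflamed samples came from mice with an α6 integrin (Itga6) deficiency of the intestinal epithelium. The adenocarcinoma group held 5 arrays (numbers 1, 2, 3, 4 and 6) of tumours from rectal prolapses of α6fl/fl Villin-Cre mice aged 53, 60, 60, 64 and 80 weeks. The inflamed group held 4 arrays (numbers 1 to 4) of the mucosa next to such tumours in α6fl/fl Villin-Cre mice aged 53, 60, 60 and 64 weeks. The normal group held 4 arrays (numbers 1, 2, 4 and 6) of rectal mucosa from mice aged 53, 60, 64 and 70 weeks, which one label field calls control, while the genotype field gives all 13 samples as α6fl/fl Villin-Cre. The Villin promoter drives Cre in the intestinal epithelium, so the floxed allele is deleted there and not in stroma. Arrays 1 and 6 were from females and arrays 2, 3 and 4 from males in every group. Tumour and inflamed tissue was dissected from frozen sections and normal mucosa was scraped, so that collection and tissue state cannot be told apart in comparisons with normal mucosa. If the normal mice were controls without the deletion, genotype cannot be told apart from them either. Nothing in the labels says whether same-numbered samples came from one mouse, and for number 6 the ages differ (80 weeks in adenocarcinoma, 70 in normal mucosa). The p-values measure only the spread between these samples.

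Cells clear lipophilic chemicals in steps. Hydrolases and oxidoreductases expose or create a reactive group, transferases then attach glutathione, sulfate, glucuronic acid or a methyl group, and transporters of the ABC family export the conjugate. In the colon and rectum these genes are expressed mostly by the epithelium, which faces bacterial metabolites and dietary compounds, and several of them are known targets of the transcription factors NRF2, PXR, CAR and AhR.

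Many of these genes were lower in the tumours. Against normal mucosa, 20 of the 37 measured genes were lower in adenocarcinoma and 5 were higher (limma, Benjamini-Hochberg adjusted p below 0.05, log2 RMA values), which is 54.1% and 13.5% of them. Over all genes tested, 19.4% were called lower and 16.4% higher in that comparison. The median log2 difference was -0.44 over the 37 genes and -0.10 over all genes. A called fall of at least 2-fold was found for 13 of the 37, against 2.63% of all genes, and a called rise of that size for 1, against 4.33%. The groups did not overlap, with every tumour below every normal array, for 15 genes (13.9% of all genes), and with every tumour above every normal array for 3 genes (13% of all genes).

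Inflamed mucosa differed less. It had 12 genes lower and 2 higher than normal mucosa, or 32.4% and 5.41% of the 37, where 13% of all genes were called lower and 13.7% higher. The median was -0.16, beside -0.09 over all genes. Called falls of at least 2-fold numbered 4 (1.06% of all genes), and called rises of that size 0 (4.39%). The arrays did not overlap for 13 lower genes (15.5% of all genes) and 1 higher gene (12%).

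Between the diseased tissues, adenocarcinoma had 9 genes lower and 3 higher than inflamed mucosa (24.3% and 8.11% of the 37), where 4.21% of all genes were called lower and 2.91% higher. The median was -0.29, beside -0.01 over all genes. At least 2-fold, 4 were lower (1.35% of all genes) and 1 higher (0.702%). The arrays did not overlap for 12 lower genes (6.51% of all genes) and 5 higher genes (5.27%). The 3 comparisons share arrays and are therefore not independent of each other. The size of each difference is drawn in the plot of log2 differences by gene.

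**Figure D1:**
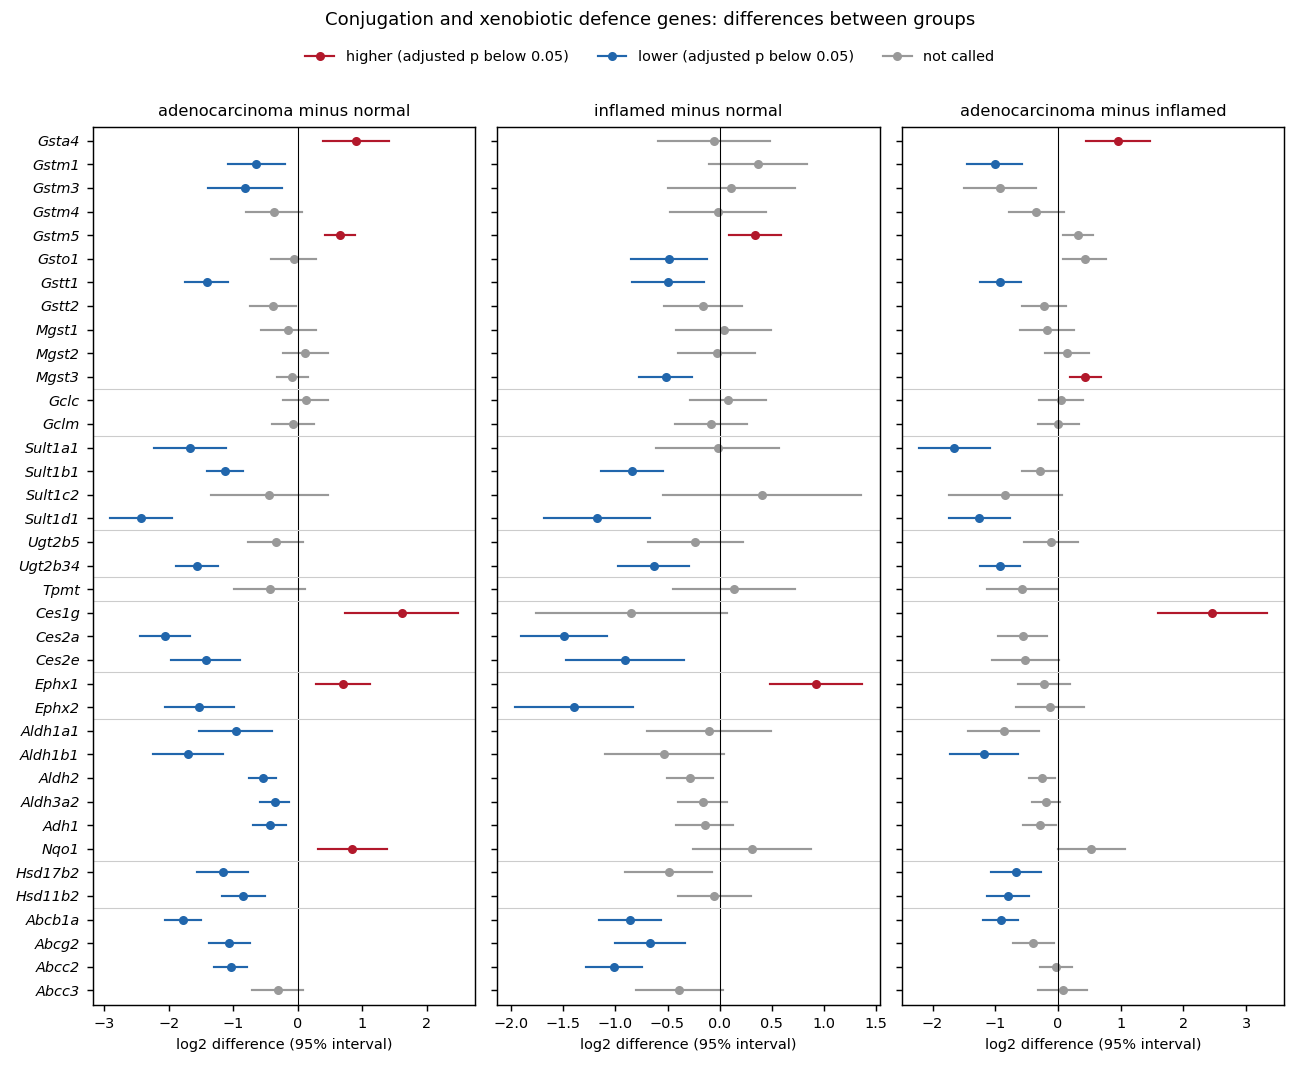
Log2 difference of each measured gene (points) with its 95% interval (bars) in adenocarcinoma minus normal, inflamed minus normal and adenocarcinoma minus inflamed mucosa, from the fit over all 13 arrays; colour marks an adjusted p below 0.05 and grey lines divide the enzyme classes. Most called genes lie left of 0, with 20 lower and 5 higher in adenocarcinoma than in normal mucosa, while Ces1g lies furthest to the right in both comparisons of adenocarcinoma.

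Epithelial content and differentiation were read from marker lists on the same arrays. The mean log2 value of 12 general epithelial markers was 11.81 to 11.86 in adenocarcinoma, 11.65 to 11.77 in inflamed mucosa and 11.91 to 11.99 in normal mucosa. Of 14 markers of mature colonocytes, 13 were lower and 1 higher in adenocarcinoma than in normal mucosa, and their mean was 9.10 to 10.17 in adenocarcinoma, 11.24 to 11.40 in inflamed mucosa and 11.995 to 12.22 in normal mucosa. Smooth muscle markers averaged 8.50 to 8.77 in adenocarcinoma, 10.15 to 11.13 in inflamed mucosa and 6.50 to 7.96 in normal mucosa. All 10 fibroblast markers and all 8 endothelial markers were higher in each diseased tissue than in normal mucosa. Fibroblast markers averaged 9.62 to 10.15 in adenocarcinoma, 9.48 to 10.02 in inflamed mucosa and 6.89 to 8.05 in normal mucosa. Endothelial markers averaged 8.38 to 8.71 in adenocarcinoma, 8.03 to 8.73 in inflamed mucosa and 6.04 to 6.55 in normal mucosa. Immune markers moved as well, with 8 of 9 macrophage markers higher than in normal mucosa in each diseased tissue. Plasma cell markers were higher for 4 of 6 in adenocarcinoma and 5 of 6 in inflamed mucosa, and neutrophil markers for 7 of 8 in adenocarcinoma and 1 of 8 in inflamed mucosa, against normal. In inflamed mucosa 1 of the 8 neutrophil markers was lower than in normal mucosa. Markers of hepatocytes, which hold many of these enzymes, averaged 6.14 to 6.38 in adenocarcinoma, 6.57 to 6.90 in inflamed mucosa and 6.08 to 6.56 in normal mucosa, and 3 of 7 were lower in adenocarcinoma than in inflamed mucosa. Against normal mucosa, 2 of the 7 were lower in adenocarcinoma, and 2 were higher and 1 lower in inflamed mucosa. In bulk tissue, fewer cells of a type and less RNA per cell cannot be told apart, and the part of tissue composition in the results was not tested. Each array was also set relative to its epithelial markers, by subtracting their mean log2 value from every gene. That moves every gene's difference by 0.12 (adenocarcinoma minus normal), 0.25 (inflamed minus normal) or -0.13 (adenocarcinoma minus inflamed). After this step, 16 genes were lower and 5 higher in adenocarcinoma than in normal mucosa, where 9.24% of all genes were lower and 21.5% higher. On that scale 7 were lower and 3 higher in inflamed than in normal mucosa (3.16% and 30.8% of all genes), and 17 lower and 2 higher in adenocarcinoma than in inflamed mucosa (10.5% and 1.76%).

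The promoters of 5 of the 31 genes with a RefSeq promoter window held the core of the antioxidant response element, the site that NRF2 binds. The window covers 250 bases before to 50 bases after the transcription start on GRCm38.p6. The core was searched as TGACNNNGC on both strands, and 4071 of 32851 promoters in the table (12.4%) held it, beside 5 of the 38 windows of these genes. Genes with it were Gstm5, Mgst1, Gclm, Abcb1a and Abcc2. The shorter core of the dioxin response element bound by AhR, GCGTG on either strand, was in 10 of the 38 windows (9 genes) and in 32.4% of all promoters. A match describes the sequence and is no evidence of binding. Windows are shown for 4 genes with the antioxidant core whose expression differed in direction: Gstm5 (chr3:107895604-107895903, plus strand), higher in adenocarcinoma than in normal mucosa, Gclm (chr3:122245307-122245606, plus strand), with no called difference, and Abcb1a (chr5:8566841-8567140, plus strand) and Abcc2 (chr19:43782058-43782357, plus strand), both lower. Each reads 5′ to 3′ and the capitals mark the core, which lies on the opposite strand in Gclm and Abcb1a.
Gstm5: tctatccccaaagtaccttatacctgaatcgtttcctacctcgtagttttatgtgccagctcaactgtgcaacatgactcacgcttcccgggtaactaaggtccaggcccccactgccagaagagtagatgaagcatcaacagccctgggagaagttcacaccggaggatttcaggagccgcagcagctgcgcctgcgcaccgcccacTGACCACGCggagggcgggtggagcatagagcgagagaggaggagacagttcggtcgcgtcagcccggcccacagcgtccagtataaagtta
Gclm: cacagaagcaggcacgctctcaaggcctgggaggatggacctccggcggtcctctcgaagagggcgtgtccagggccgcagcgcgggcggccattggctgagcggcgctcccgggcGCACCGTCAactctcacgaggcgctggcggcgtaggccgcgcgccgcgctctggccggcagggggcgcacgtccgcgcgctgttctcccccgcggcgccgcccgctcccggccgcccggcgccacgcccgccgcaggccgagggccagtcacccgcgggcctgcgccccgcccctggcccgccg
Abcb1a: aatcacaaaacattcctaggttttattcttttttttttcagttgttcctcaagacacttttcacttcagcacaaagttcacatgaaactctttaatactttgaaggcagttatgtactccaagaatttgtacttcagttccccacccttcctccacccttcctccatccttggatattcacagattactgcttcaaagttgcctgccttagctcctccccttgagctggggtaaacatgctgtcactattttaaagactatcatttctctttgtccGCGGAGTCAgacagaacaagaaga
Abcc2: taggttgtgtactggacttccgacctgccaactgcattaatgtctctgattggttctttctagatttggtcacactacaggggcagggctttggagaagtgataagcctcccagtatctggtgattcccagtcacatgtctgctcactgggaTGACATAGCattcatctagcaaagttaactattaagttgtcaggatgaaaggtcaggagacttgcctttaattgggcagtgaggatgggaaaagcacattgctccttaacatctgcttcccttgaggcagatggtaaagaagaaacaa
The core starts 42 bases before the transcription start in Gstm5, 134 bases before it in Gclm and 98 bases before it in Abcc2, and 26 bases after it in Abcb1a.

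Glutathione transferases couple glutathione to electrophiles, and their 11 measured genes did not move in one direction. Against normal mucosa, 2 were higher (Gsta4 and Gstm5) and 3 lower (Gstt1, Gstm3 and Gstm1) in adenocarcinoma. That is 18.2% and 27.3% of them, beside 16.4% and 19.4% of all genes. Values are given below as log2 RMA readings in the order of array numbers.

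Gsta4, which conjugates the lipid peroxidation product 4-hydroxynonenal, read 10.24, 10.45, 10.31, 10.17 and 10.42 in adenocarcinoma, against 9.65, 9.50, 9.77 and 8.52 in inflamed mucosa and 9.80, 8.92, 9.78 and 9.15 in normal mucosa. Every tumour was above every array of the other groups, and inflamed 4 was the lowest array. Gsta4 was higher in adenocarcinoma, at 0.90 ± 0.24 (adjusted p = 0.0102) against normal mucosa and at 0.96 ± 0.24 (adjusted p = 0.0266) against inflamed mucosa, differences given as log2 ± SE. The second call was lost without adenocarcinoma 2 or 6 or inflamed 2 or 4, where adjusted p was 0.0558 to 0.0648, and with replicate number as a block over all 13 arrays (0.98, adjusted p = 0.054). Inflamed and normal mucosa differed by -0.06 ± 0.25 (adjusted p = 0.878).

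Gstm5, a mu-class transferase whose promoter is shown above, read 9.19, 9.15, 9.37, 9.23 and 9.18 in adenocarcinoma, against 9.01, 8.98, 8.67 and 8.97 in inflamed mucosa and 8.43, 8.42, 8.90 and 8.52 in normal mucosa. All tumours were above all inflamed and all normal arrays, while inflamed 3 lay among the normal arrays. The rise was 0.66 ± 0.11 (adjusted p = 0.000439) in adenocarcinoma and 0.34 ± 0.12 (adjusted p = 0.0426) in inflamed mucosa against normal, and the difference between the diseased tissues was 0.32 ± 0.11 (adjusted p = 0.107). The call in inflamed mucosa was lost in 15 of 23 other settings, among them leaving out any 1 of adenocarcinoma 1, 2, 4 or 6, inflamed 1, 2 or 4, or normal 1, 2 or 6 (adjusted p 0.0505 to 0.115). Relative to the epithelial markers the rise in inflamed mucosa was 0.59 (adjusted p = 0.00122).

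Among the other mu-class genes, Gstm1 and Gstm3 were called lower in adenocarcinoma than in normal mucosa, and Gstm4 was not called. Gstm1 read 10.31, 9.32, 10.15, 9.92 and 9.49 in adenocarcinoma, against 10.96, 10.74, 10.78 and 10.93 in inflamed mucosa and 10.10, 10.25, 10.63 and 10.95 in normal mucosa. Tumours were below every inflamed array but overlapped the normal ones. Gstm1 was lower in adenocarcinoma than in inflamed mucosa, at -1.01 ± 0.21 (adjusted p = 0.00901), and lower than in normal mucosa, at -0.64 ± 0.21 (adjusted p = 0.027). That last call was lost without adenocarcinoma 2 or 6 or normal 4 or 6, where adjusted p was 0.0595 to 0.0784. It was also lost with the 2 groups alone (adjusted p = 0.0564) and relative to the epithelial markers (-0.52, adjusted p = 0.0728). On that scale Gstm1 was higher in inflamed than in normal mucosa by 0.62 (adjusted p = 0.0415), against 0.37 (adjusted p = 0.205) as deposited.

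Gstm3 was lower in adenocarcinoma than in normal mucosa, at -0.81 ± 0.27 (adjusted p = 0.0307), a call also lost without adenocarcinoma 2 or 6 or normal 4 or 6 (adjusted p 0.0669 to 0.0863) and relative to the epithelial markers (-0.69, adjusted p = 0.0661). A second cluster of Gstm3 gave -0.88 in that comparison. Against inflamed mucosa the difference was -0.93 ± 0.27 (adjusted p = 0.0535), and with same-numbered adenocarcinoma and inflamed arrays as pairs it was -0.80 (adjusted p = 0.0134). Gstm4 differed by -0.36 ± 0.20 (adjusted p = 0.171) between adenocarcinoma and normal mucosa. Genes of the Gstm, Ces2, Sult1 and Ugt2b families are similar in sequence, and a reading of one may include transcripts of its relatives.

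Gstt1, a theta-class transferase that acts on small halogenated compounds, fell in both diseased tissues. It was 7.63 to 8.25 in adenocarcinoma, 8.76 to 8.996 in inflamed mucosa and 8.96 to 9.56 in normal mucosa. The difference from normal mucosa was -1.41 ± 0.15 (adjusted p = 1.33e-05) in adenocarcinoma, or 2.66-fold lower, and -0.49 ± 0.16 (adjusted p = 0.0377) in inflamed mucosa. Adenocarcinoma was lower than inflamed mucosa, at -0.92 ± 0.15 (adjusted p = 0.00266). The call in inflamed mucosa was lost without inflamed 1, 2 or 3 or normal 2, 4 or 6 (adjusted p 0.0658 to 0.0882), with replicate number as a block (-0.48, adjusted p = 0.065) and relative to the epithelial markers (-0.24, adjusted p = 0.307). Its relative Gstt2 differed from normal mucosa by -0.38 ± 0.17 (adjusted p = 0.0819) in adenocarcinoma, and without normal 1 by -0.59 (adjusted p = 0.00221).

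Mgst3, a membrane-bound transferase with glutathione peroxidase activity, was the 1 gene called in opposite directions. It read 10.92, 11.02, 10.77, 10.82 and 11.06 in adenocarcinoma, against 10.75, 10.56, 10.24 and 10.37 in inflamed mucosa and 11.03, 11.19, 10.91 and 10.86 in normal mucosa. Inflamed arrays were below all tumours and all normal arrays, and tumours overlapped normal mucosa. Mgst3 was lower in inflamed than in normal mucosa, at -0.52 ± 0.12 (adjusted p = 0.00596), and higher in adenocarcinoma than in inflamed mucosa by 0.44 ± 0.11 (adjusted p = 0.0301), whereas adenocarcinoma and normal mucosa differed by -0.08 ± 0.11 (adjusted p = 0.576). The call between the diseased tissues was lost without adenocarcinoma 1, 2 or 6 or inflamed 2, 3 or 4 (adjusted p 0.0563 to 0.0967). Relative to the epithelial markers both calls were lost, at -0.27 (adjusted p = 0.0803) for inflamed against normal and 0.30 (adjusted p = 0.073) for adenocarcinoma against inflamed mucosa.

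Gsto1, an omega-class enzyme that reduces dehydroascorbate, followed a similar order. It was 11.42 to 11.87 in adenocarcinoma, 10.98 to 11.32 in inflamed mucosa and 11.32 to 12.20 in normal mucosa. Inflamed arrays were below every tumour, and the highest of them equalled normal 2 to 2 decimals. The difference was -0.49 ± 0.17 (adjusted p = 0.0497) between inflamed and normal mucosa, and 0.42 ± 0.16 (adjusted p = 0.151) between adenocarcinoma and inflamed mucosa. Without normal 1, the first became -0.28 (adjusted p = 0.101) and the second was called at 0.42 (adjusted p = 0.0255). The first call was also lost without adenocarcinoma 1, 3, 4 or 6 or inflamed 2, 3 or 4, and relative to the epithelial markers (-0.23, adjusted p = 0.329). Other fits lost it too: sex as a covariate (adjusted p = 0.0755), the 2 groups alone (adjusted p = 0.0902) and replicate number as a block (adjusted p = 0.0722). Mgst1 and Mgst2, the other membrane-bound enzymes, differed from normal mucosa by -0.14 (adjusted p = 0.577) and 0.12 (adjusted p = 0.577) in adenocarcinoma.

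Glutathione itself is made in a first step by glutamate-cysteine ligase, whose catalytic subunit is Gclc and whose modifier subunit is Gclm. Neither gene was called in any comparison. Gclc was 10.34 to 10.72 in adenocarcinoma, 10.16 to 10.71 in inflamed mucosa and 9.999 to 10.71 in normal mucosa. Gclm was 10.35 to 11.15 in adenocarcinoma, 10.55 to 10.92 in inflamed mucosa and 10.67 to 10.98 in normal mucosa. The 95% intervals of the difference between adenocarcinoma and normal mucosa ran from -0.22 to 0.47 for Gclc and from -0.40 to 0.25 for Gclm.

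**Figure D2:**
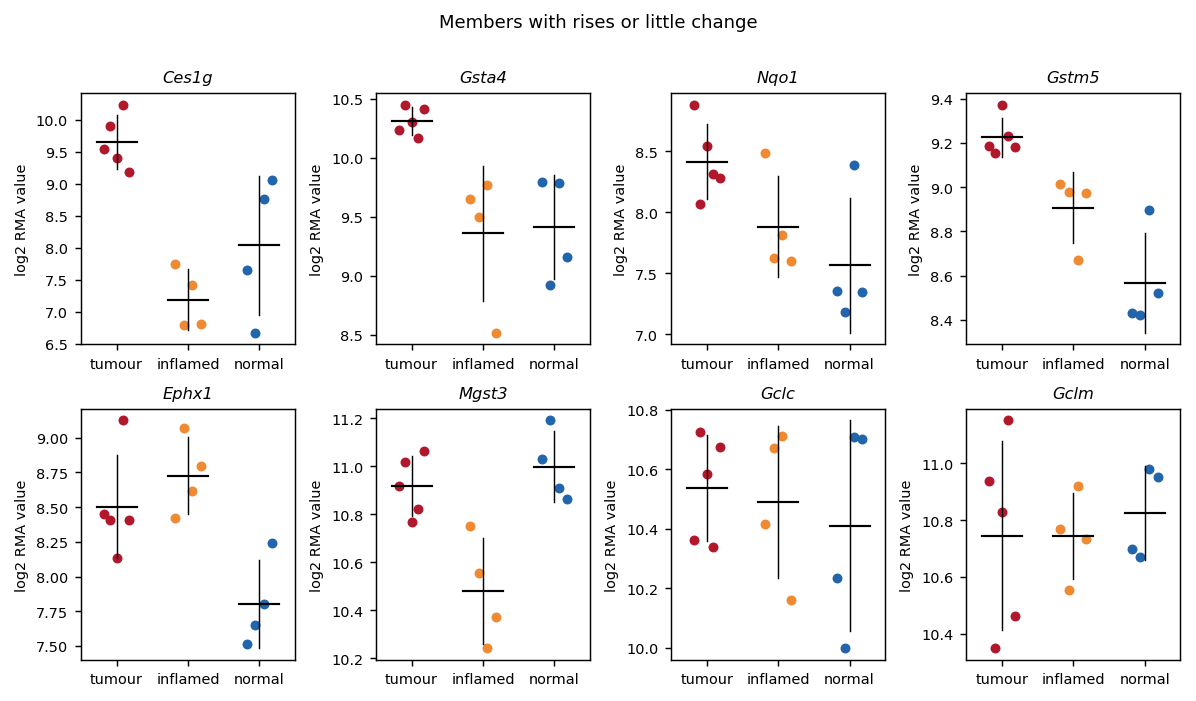
Log2 RMA value of 8 genes on each array of adenocarcinoma (labelled tumour), inflamed and normal rectal mucosa; points are arrays, the horizontal bar is the group mean and the vertical bar 1 SD. Tumours stand above both other groups for Ces1g, Gsta4 and Gstm5, inflamed arrays lie below both others for Mgst3, and the 3 groups overlap for Gclc and Gclm.

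Sulfotransferases of the SULT1 family attach sulfate to phenols, hormones and amines. In adenocarcinoma, 3 of 4 were called at least 2-fold lower than in normal mucosa, beside 2.63% of all genes. Sult1d1, which acts on catecholamines in mice, had the largest fall of the 37 genes in adenocarcinoma against normal mucosa. It read 9.25, 8.86, 9.70, 9.31 and 8.53 in adenocarcinoma, against 10.39, 10.41, 9.94 and 10.79 in inflamed mucosa and 11.72, 11.67, 11.74 and 11.11 in normal mucosa. The 3 groups did not overlap, with tumours lowest and normal mucosa highest. Sult1d1 was lower than in normal mucosa, at -2.43 ± 0.23 (adjusted p = 3.33e-06) in adenocarcinoma, 5.38-fold, and at -1.18 ± 0.24 (adjusted p = 0.00289) in inflamed mucosa. Adenocarcinoma was lower than inflamed mucosa, at -1.25 ± 0.23 (adjusted p = 0.0042).

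Sult1a1, the main phenol sulfotransferase, read 7.60, 7.80, 7.79, 7.28 and 6.43 in adenocarcinoma, against 8.97, 9.26, 8.72 and 9.19 in inflamed mucosa and 8.72, 8.72, 9.19 and 9.57 in normal mucosa. Tumours were below all other arrays, and inflamed and normal mucosa overlapped. Inflamed 3, normal 1 and normal 2 hold the identical deposited value. Sult1a1 was lower in adenocarcinoma, at -1.67 ± 0.26 (adjusted p = 0.000286) against normal and at -1.65 ± 0.26 (adjusted p = 0.00193) against inflamed mucosa, 3.18-fold and 3.14-fold. Inflamed and normal mucosa differed by -0.02 ± 0.28 (adjusted p = 0.966), with a 95% interval from -0.61 to 0.58.

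Sult1b1, which sulfates phenols and thyroid hormones, was instead lower in both diseased tissues. It was 9.81 to 10.32 in adenocarcinoma, 10.10 to 10.56 in inflamed mucosa and 10.95 to 11.34 in normal mucosa. The differences from normal were -1.13 ± 0.13 (adjusted p = 2.33e-05) in adenocarcinoma and -0.84 ± 0.14 (adjusted p = 0.000639) in inflamed mucosa, and adenocarcinoma and inflamed arrays overlapped. Sult1c2 varied widely, at 7.42 to 9.35 in adenocarcinoma, 8.94 to 9.99 in inflamed mucosa and 7.86 to 9.78 in normal mucosa. It was not called in any comparison of the 13 arrays, and as pairs of same-numbered arrays adenocarcinoma was lower than inflamed mucosa, at -0.53 (adjusted p = 0.0237).

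Among glucuronosyltransferases, which attach glucuronic acid to bile acids, steroids and drugs, Ugt2b34 fell in both tissues. It read 10.81, 10.62, 10.84, 10.44 and 9.99 in adenocarcinoma, against 11.60, 11.36, 11.49 and 11.42 in inflamed mucosa and 12.01, 12.18, 12.28 and 11.93 in normal mucosa. The 3 groups were separate, with inflamed mucosa between the others. Ugt2b34 was lower than in normal mucosa, at -1.56 ± 0.15 (adjusted p = 4.86e-06) in adenocarcinoma, 2.94-fold, and at -0.63 ± 0.16 (adjusted p = 0.0108) in inflamed mucosa, and adenocarcinoma was lower than inflamed mucosa at -0.92 ± 0.15 (adjusted p = 0.00234). Relative to the epithelial markers the value in inflamed mucosa was -0.38 (adjusted p = 0.0708), and that call was lost.

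Ugt2b5 read 3.26 to 4.58 over all 13 arrays, below the highest reading of transcripts that are absent because of the animal's sex (5.57), and no level can be taken from it. The shared cluster of 8 Ugt1a genes, Ugt1a1 among them, averaged 8.29 ± 0.22 in adenocarcinoma, 8.51 ± 0.17 in inflamed mucosa and 8.60 ± 0.29 in normal mucosa (SD, n = 5, 4 and 4). Tpmt, which methylates thiopurine drugs, differed from normal mucosa by -0.43 ± 0.26 (adjusted p = 0.195) in adenocarcinoma and by 0.14 ± 0.27 (adjusted p = 0.705) in inflamed mucosa.

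**Figure D3:**
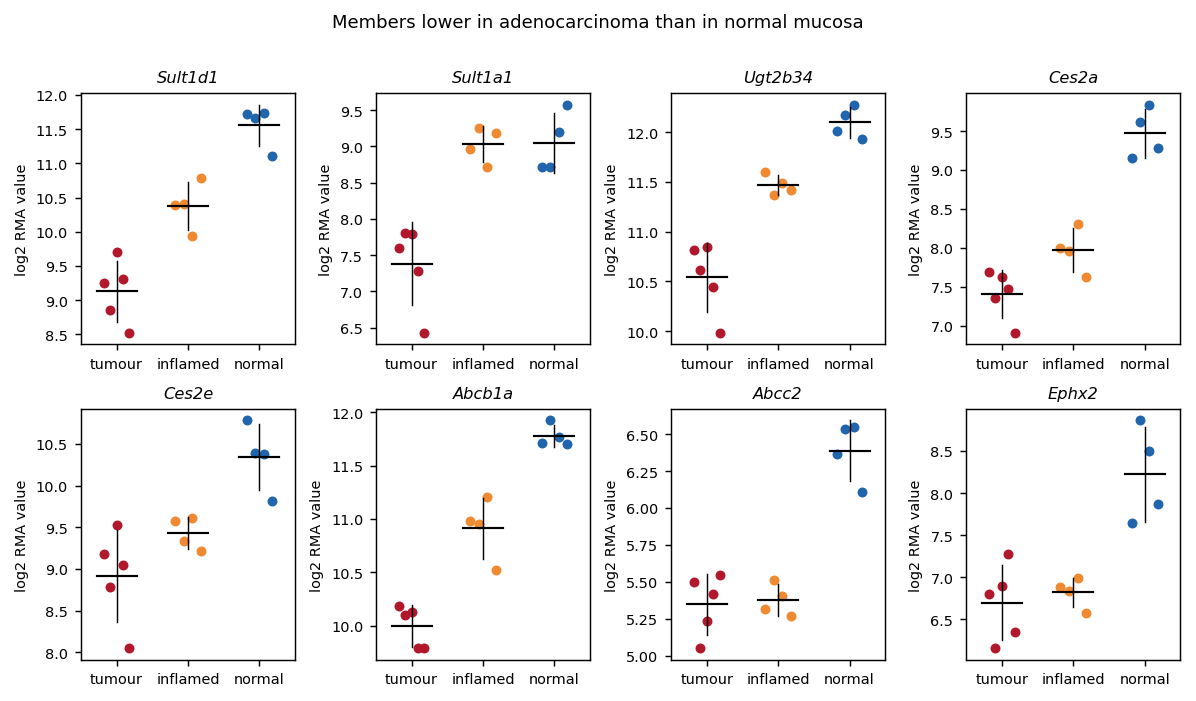
Log2 RMA value of 8 genes lower in adenocarcinoma than in normal mucosa, on each array of adenocarcinoma (labelled tumour), inflamed and normal rectal mucosa; points are arrays, the horizontal bar is the group mean and the vertical bar 1 SD. Sult1a1 is low in tumours alone, inflamed arrays lie between the groups for Sult1d1, Ugt2b34 and Abcb1a, and inflamed arrays lie with tumours for Abcc2 and Ephx2.

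Carboxylesterases split esters and amides of drugs and lipids, and the 3 measured genes moved apart. Ces1g, a lipid and drug esterase, read 9.54, 9.90, 9.40, 10.23 and 9.18 in adenocarcinoma, against 7.74, 6.79, 7.43 and 6.80 in inflamed mucosa and 7.66, 6.67, 8.76 and 9.06 in normal mucosa. Every tumour was above every inflamed and every normal array, and normal arrays were spread between 6.67 and 9.06. Ces1g was higher in adenocarcinoma by 1.61 ± 0.41 (adjusted p = 0.00766) against normal and by 2.46 ± 0.41 (adjusted p = 0.00248) against inflamed mucosa, 3.06-fold and 5.5-fold. Inflamed and normal mucosa differed by -0.85 ± 0.43 (adjusted p = 0.147), and without normal 2 by -1.30 (adjusted p = 0.0207).

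Ces2a, an intestinal esterase of the type that cleaves prodrugs, read 7.69, 7.36, 7.62, 7.47 and 6.91 in adenocarcinoma, against 8.003, 7.96, 8.31 and 7.62 in inflamed mucosa and 9.16, 9.61, 9.84 and 9.28 in normal mucosa. All normal arrays were above all others, and adenocarcinoma and inflamed arrays overlapped. Ces2a was lower than in normal mucosa, at -2.06 ± 0.18 (adjusted p = 2.15e-06) in adenocarcinoma and at -1.50 ± 0.19 (adjusted p = 9.35e-05) in inflamed mucosa, 4.18-fold and 2.82-fold. Adenocarcinoma differed from inflamed mucosa by -0.57 ± 0.18 (adjusted p = 0.0829), and by -0.44 (adjusted p = 0.0462) with same-numbered arrays as pairs.

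Ces2e read 9.17, 8.78, 9.52, 9.05 and 8.05 in adenocarcinoma, against 9.58, 9.33, 9.62 and 9.22 in inflamed mucosa and 10.78, 10.39, 10.38 and 9.82 in normal mucosa. Normal arrays again lay above all others. The differences from normal were -1.43 ± 0.25 (adjusted p = 0.000663) in adenocarcinoma and -0.91 ± 0.26 (adjusted p = 0.0225) in inflamed mucosa, and the second call was lost without inflamed 2 or 4 or normal 1 or 2 (adjusted p 0.0557 to 0.0607) and relative to the epithelial markers (-0.66, adjusted p = 0.0664).

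The epoxide hydrolases, which open reactive epoxides with water, went in opposite directions. Ephx1, the microsomal enzyme that acts on xenobiotic epoxides, read 8.45, 8.40, 8.14, 9.12 and 8.40 in adenocarcinoma, against 8.42, 9.07, 8.62 and 8.80 in inflamed mucosa and 7.51, 7.65, 7.80 and 8.24 in normal mucosa. All inflamed arrays were above all normal arrays, and 1 tumour, adenocarcinoma 3, fell below normal 6. Ephx1 was higher than in normal mucosa by 0.70 ± 0.20 (adjusted p = 0.0138) in adenocarcinoma and by 0.93 ± 0.21 (adjusted p = 0.00544) in inflamed mucosa.

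Ephx2, the soluble enzyme that hydrolyses fatty acid epoxides, read 6.80, 6.16, 6.90, 7.27 and 6.35 in adenocarcinoma, against 6.88, 6.83, 6.99 and 6.58 in inflamed mucosa and 7.65, 8.86, 8.50 and 7.87 in normal mucosa. Both diseased tissues were below all normal arrays and overlapped each other. Ephx2 was lower than in normal mucosa, at -1.52 ± 0.25 (adjusted p = 0.000416) in adenocarcinoma and at -1.40 ± 0.27 (adjusted p = 0.00186) in inflamed mucosa, while the difference between the diseased tissues was -0.12 ± 0.25 (adjusted p = 0.888), with a 95% interval from -0.67 to 0.42.

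Alcohol, aldehyde and quinone oxidoreductases included 5 genes lower and 1 higher in adenocarcinoma than in normal mucosa, beside 19.4% and 16.4% of all genes. In inflamed against normal mucosa 0 of 6 were called, beside 13% of all genes lower and 13.7% higher. Unadjusted limma p in that comparison was below 0.05 for Aldh2 alone, at 0.0164. Aldh1b1, a mitochondrial aldehyde dehydrogenase, read 8.28, 8.16, 8.73, 8.28 and 7.38 in adenocarcinoma, against 9.43, 9.76, 8.76 and 9.41 in inflamed mucosa and 10.28, 9.71, 10.003 and 9.50 in normal mucosa. Every tumour was below every other array, with inflamed 3 closest to the tumours. It was lower in adenocarcinoma, at -1.71 ± 0.25 (adjusted p = 0.000183) against normal and at -1.18 ± 0.25 (adjusted p = 0.0123) against inflamed mucosa. The second became -1.04 (adjusted p = 0.0507) without inflamed 2.

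Aldh1a1, which makes retinoic acid from retinaldehyde, was lower in adenocarcinoma than in normal mucosa, at -0.96 ± 0.26 (adjusted p = 0.0121). Its values were 8.07 to 9.47 in adenocarcinoma, 9.08 to 9.64 in inflamed mucosa and 9.16 to 9.95 in normal mucosa, and adenocarcinoma 3 alone lay within the range of the other groups. Against inflamed mucosa it differed by -0.86 ± 0.26 (adjusted p = 0.065), and without adenocarcinoma 3 by -1.10 (adjusted p = 0.00528).

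Smaller falls in adenocarcinoma were measured for Aldh2, the mitochondrial enzyme for acetaldehyde, at -0.54 ± 0.099 (adjusted p = 0.000881), and for Adh1, an alcohol and retinol dehydrogenase, at -0.44 ± 0.12 (adjusted p = 0.0139). Aldh3a2, which oxidises long-chain fatty aldehydes, was lower, at -0.36 ± 0.10 (adjusted p = 0.0165), and without normal 1 differed by -0.30 (adjusted p = 0.0514). Relative to the epithelial markers, Adh1 differed by -0.32 (adjusted p = 0.0646) and Aldh3a2 by -0.24 (adjusted p = 0.0897), and neither was called. In inflamed mucosa Aldh2 differed from normal by -0.28 ± 0.10 (adjusted p = 0.0573) with no overlap between the groups, and it was called without adenocarcinoma 1 or 6 (adjusted p 0.0499 and 0.0314). Relative to the epithelial markers that difference was -0.03 (adjusted p = 0.852).

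Nqo1, the quinone reductase and a standard NRF2 target, read 8.88, 8.06, 8.54, 8.31 and 8.28 in adenocarcinoma, against 8.48, 7.63, 7.82 and 7.60 in inflamed mucosa and 7.35, 7.18, 8.39 and 7.34 in normal mucosa. Tumours were above 3 of the 4 normal arrays, and normal 4 lay among the tumours. Against normal mucosa, Nqo1 was higher in adenocarcinoma by 0.85 ± 0.25 (adjusted p = 0.0184), and without normal 2 by 0.72 (adjusted p = 0.0674). Against inflamed mucosa the difference was 0.53 ± 0.25 (adjusted p = 0.263), and 0.57 (adjusted p = 0.0105) with same-numbered arrays as pairs.

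The steroid dehydrogenases were both lower in tumours. Hsd11b2, which inactivates glucocorticoids and so guards the mineralocorticoid receptor in colon epithelium, was 10.79 to 11.79 in adenocarcinoma, 12.07 to 12.32 in inflamed mucosa and 12.17 to 12.34 in normal mucosa. It was lower in adenocarcinoma, at -0.84 ± 0.16 (adjusted p = 0.000962) against normal and at -0.79 ± 0.16 (adjusted p = 0.00728) against inflamed mucosa, whereas inflamed and normal mucosa differed at -0.05 ± 0.16 (adjusted p = 0.825). Hsd17b2, which oxidises estradiol and testosterone to weaker steroids, was 9.25 to 10.42 in adenocarcinoma, 10.51 to 10.82 in inflamed mucosa and 10.83 to 11.33 in normal mucosa. The 3 groups did not overlap. Its differences were -1.16 ± 0.19 (adjusted p = 0.000319) for adenocarcinoma against normal, -0.49 ± 0.20 (adjusted p = 0.0765) for inflamed against normal and -0.67 ± 0.19 (adjusted p = 0.0426) for adenocarcinoma against inflamed mucosa. The last was lost without any 1 inflamed array, adenocarcinoma 2 or 4, or normal 4 (adjusted p 0.0539 to 0.101). That call was also lost with sex as a covariate (adjusted p = 0.0596), with the 2 groups alone (adjusted p = 0.0563) and with arrays centred on their medians (adjusted p = 0.0634). The second was called without adenocarcinoma 6 (adjusted p = 0.018). Relative to the epithelial markers the second was -0.24 (adjusted p = 0.381).

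Apical efflux pumps fell in both diseased tissues. Abcb1a, the intestinal P-glycoprotein that exports drugs into the lumen, read 10.19, 10.10, 10.13, 9.79 and 9.79 in adenocarcinoma, against 10.99, 10.95, 11.20 and 10.52 in inflamed mucosa and 11.71, 11.92, 11.77 and 11.70 in normal mucosa. The 3 groups were separate, with tumours lowest and normal mucosa highest. Abcb1a was lower than in normal mucosa, at -1.78 ± 0.13 (adjusted p = 4.8e-07) in adenocarcinoma, 3.43-fold, and at -0.86 ± 0.14 (adjusted p = 0.000589) in inflamed mucosa, and adenocarcinoma was lower than inflamed mucosa at -0.92 ± 0.13 (adjusted p = 0.00106).

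Abcg2, the breast cancer resistance protein, was 7.11 to 7.74 in adenocarcinoma, 7.63 to 8.17 in inflamed mucosa and 8.25 to 8.82 in normal mucosa. It was lower than in normal mucosa, at -1.06 ± 0.15 (adjusted p = 0.000121) in adenocarcinoma and at -0.67 ± 0.16 (adjusted p = 0.00718) in inflamed mucosa, where it was -0.42 (adjusted p = 0.049) relative to the epithelial markers.

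Abcc2, an apical exporter of glutathione and glucuronide conjugates, read 5.50, 5.05, 5.23, 5.42 and 5.55 in adenocarcinoma, against 5.32, 5.51, 5.40 and 5.27 in inflamed mucosa and 6.36, 6.53, 6.55 and 6.11 in normal mucosa. Normal arrays were above all others, and every adenocarcinoma and inflamed reading was at or under the 5.57 reached by absent transcripts. Its differences from normal, -1.04 ± 0.12 (adjusted p = 2.21e-05) in adenocarcinoma and -1.01 ± 0.13 (adjusted p = 7.04e-05) in inflamed mucosa, therefore show a fall towards background whose size is not fixed. Abcc3, the basolateral exporter of conjugates, was not called in any comparison, with -0.31 (adjusted p = 0.193) in adenocarcinoma against normal mucosa and -0.39 (adjusted p = 0.146) in inflamed against normal mucosa. Without inflamed 3 that value was -0.56 (adjusted p = 0.0377).

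Same-numbered adenocarcinoma and inflamed arrays deviated from their group means together (correlation over genes 0.198 to 0.387 in the 4 pairs) and shared sex and age, so they were also compared as pairs. With the pairs as blocks, 12 genes were lower and 4 higher in adenocarcinoma, where 5.89% of all genes were called lower and 3.67% higher. In all 4 pairs adenocarcinoma was higher for 6 genes, Gsta4, Gstm5, Gsto1, Mgst3, Ces1g and Nqo1, and lower for 19 genes. Of all genes tested, 13.6% were higher and 16.8% lower in all 4 pairs. The other 12 genes of the set had mixed signs. Ces1g was higher by 1.80 to 3.43 log2 units within pairs, and Sult1a1 differed by -1.90 to -0.93. Ugt2b34 and Abcb1a kept close sizes over the pairs, at -0.97 to -0.64 and -1.07 to -0.73. The pair numbered 3 stood apart for Sult1d1 (-0.24, against -1.55 to -1.14 in the others) and Aldh1b1 (-0.03, against -1.60 to -1.14), as the plot of pair differences shows.

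**Figure D4:**
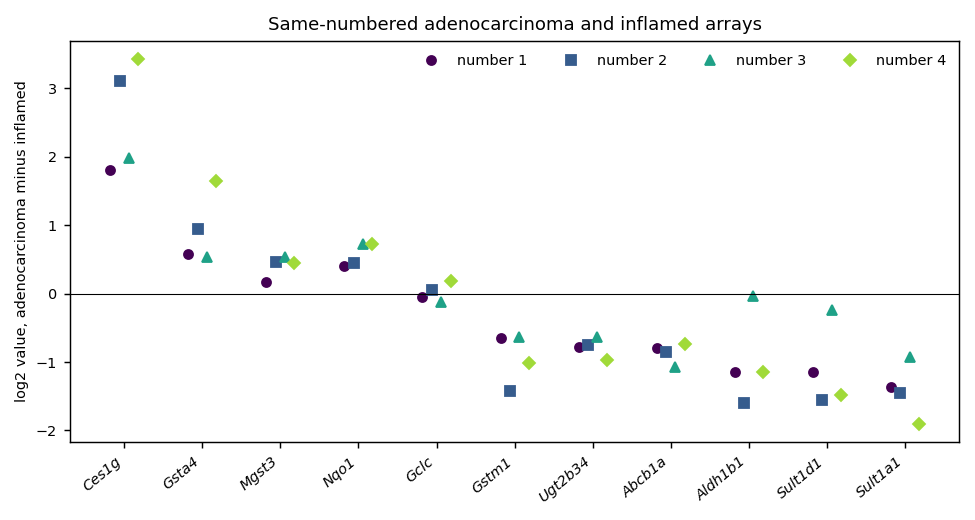
Log2 value of the adenocarcinoma array minus that of the inflamed array with the same number, for 11 genes and numbers 1 to 4 (marker shape and colour). Ces1g, Gsta4, Mgst3 and Nqo1 lie above 0 in all 4 pairs, Gclc on both sides of 0, and the remaining 6 genes below 0, with number 3 near 0 for Aldh1b1 and Sult1d1.

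The mean over the 37 genes spread most among tumours, where adenocarcinoma 6 read 8.82 and the others 9.10 to 9.37. Single genes did not all follow that order. The mean over the 37 genes was 8.82 to 9.37 in adenocarcinoma, 9.38 to 9.57 in inflamed mucosa and 9.66 to 9.99 in normal mucosa, with SDs of 0.226, 0.0782 and 0.154. Adenocarcinoma 6, from the oldest mouse, had the lowest value among tumours for 21 of the 37 genes and also the lowest mature colonocyte score, 9.10 against 9.64 to 10.17 in the other tumours. Sult1a1 (6.43), Sult1c2 (7.42), Tpmt (8.46) and Ces2e (8.05) were each lowest in that tumour. Normal 4 had the highest value among normal arrays for 18 genes. Such counts were not made over all genes, so neither can be read as particular to the 37. Normal 1 had a squamous epithelium score of 9.30, against 5.79 to 6.06 on the other normal arrays, and normal 6 had the highest smooth muscle and fibroblast scores of its group, 7.96 and 8.05. Without both, 19 genes were lower and 4 higher in adenocarcinoma than in normal mucosa (17.1% and 13.9% of all genes), and 11 lower and 1 higher in inflamed than in normal mucosa (12.3% and 11.9%). The part of these tissue markers in the results was not tested.

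**Figure D5:**
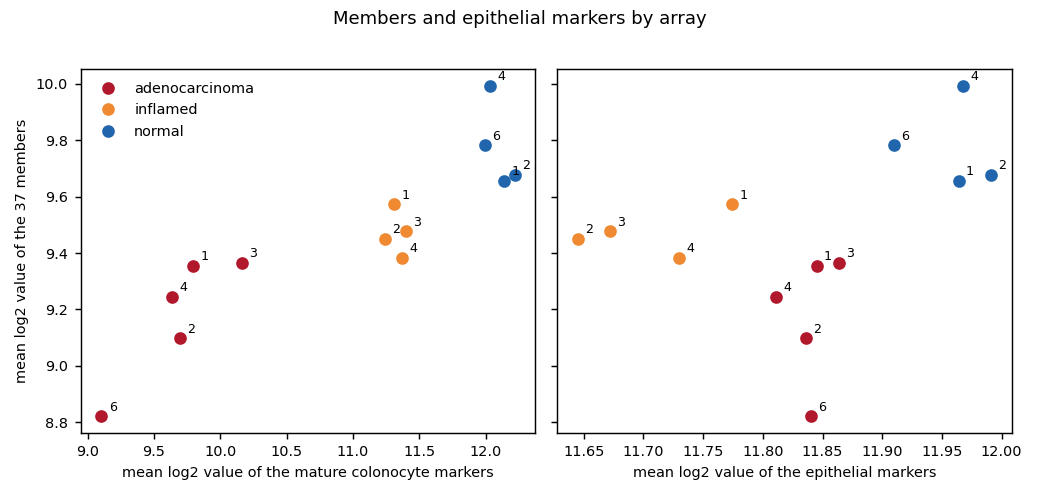
Mean log2 value of the 37 genes on each array (vertical axis) against the mean log2 value of 14 mature colonocyte markers (left) and of 12 epithelial markers (right); colours mark adenocarcinoma, inflamed and normal mucosa and figures beside the points the array numbers. The 3 groups are separate on the left axis, while on the right adenocarcinoma lies between inflamed and normal mucosa.

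Related genes outside the set were read from lists, whose counts stand beside the following shares of all genes. Against normal mucosa, 19.4% were called lower and 16.4% higher in adenocarcinoma, and 13% and 13.7% in inflamed mucosa. Between the diseased tissues, 4.21% were lower and 2.91% higher in adenocarcinoma. Of 27 measured genes for glutathione supply and peroxide removal, 10 were higher and 4 lower in adenocarcinoma than in normal mucosa, 7 higher and 3 lower in inflamed than in normal mucosa, and 3 higher and 1 lower in adenocarcinoma than in inflamed mucosa. Slc7a11, the cystine importer that feeds glutathione synthesis, was higher than in normal mucosa by 2.19 ± 0.33 (adjusted p = 0.000207) in adenocarcinoma and 1.45 ± 0.35 (adjusted p = 0.0081) in inflamed mucosa. Gpx3, the secreted glutathione peroxidase, was higher by 2.97 ± 0.34 (adjusted p = 1.92e-05) and 3.03 ± 0.35 (adjusted p = 4.19e-05) in the same order. Glrx, a glutaredoxin, was lower, at -1.63 ± 0.22 (adjusted p = 8e-05) in adenocarcinoma and -1.05 ± 0.23 (adjusted p = 0.00475) in inflamed mucosa.

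Of 24 other sulfate and glucuronate conjugation genes, 6 were lower and 1 higher in adenocarcinoma than in normal mucosa, the same numbers in inflamed against normal mucosa, and 3 lower and 1 higher in adenocarcinoma against inflamed mucosa. Ugdh, which makes the glucuronic acid donor, was lower, at -1.64 ± 0.13 (adjusted p = 1.07e-06) in adenocarcinoma and -1.22 ± 0.14 (adjusted p = 4e-05) in inflamed mucosa against normal. Gusb, the lysosomal enzyme that removes glucuronic acid, was higher by 1.75 ± 0.13 (adjusted p = 5.84e-07) and 1.22 ± 0.14 (adjusted p = 3.76e-05), and higher in adenocarcinoma than in inflamed mucosa by 0.53 ± 0.13 (adjusted p = 0.0288).

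Of 29 other transporters, 15 were lower and 6 higher in adenocarcinoma than in normal mucosa, 10 lower and 5 higher in inflamed than in normal mucosa, and 2 lower and 2 higher in adenocarcinoma than in inflamed mucosa. Abcb1b, the second mouse P-glycoprotein gene, was higher in adenocarcinoma than in normal mucosa, at 1.01 ± 0.20 (adjusted p = 0.00163), while Abcb1a was lower. Abcc4, an exporter of cyclic nucleotides and conjugates, was higher by 1.12 ± 0.17 (adjusted p = 0.000217). The peptide importer Slc15a1 and the anion exchanger Slc26a3, both also on the mature colonocyte list, were lower, at -4.69 ± 0.37 (adjusted p = 8.55e-07) and -4.59 ± 0.57 (adjusted p = 4.53e-05).

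Of 45 regulators and NRF2 or AhR targets, 16 were lower and 8 higher in adenocarcinoma than in normal mucosa, 15 lower and 6 higher in inflamed than in normal mucosa, and 4 lower and 5 higher in adenocarcinoma than in inflamed mucosa. Hmox1, heme oxygenase 1, was higher in adenocarcinoma by 1.504 ± 0.12 (adjusted p = 9.29e-07) against normal and by 0.82 ± 0.12 (adjusted p = 0.00123) against inflamed mucosa. Me1, which supplies NADPH, was higher against normal mucosa by 2.43 ± 0.37 (adjusted p = 0.000224) in adenocarcinoma and 1.46 ± 0.39 (adjusted p = 0.0145) in inflamed mucosa. Osgin1 of the same list was lower in inflamed than in normal mucosa, at -0.87 ± 0.14 (adjusted p = 0.000671). Txnrd1 was also lower there, at -0.41 ± 0.14 (adjusted p = 0.0407), but higher in adenocarcinoma than in inflamed mucosa by 0.68 ± 0.13 (adjusted p = 0.00596). The vitamin D receptor Vdr and the mineralocorticoid receptor Nr3c2 were lower in adenocarcinoma than in normal mucosa, at -1.83 ± 0.25 (adjusted p = 9.64e-05) and -1.58 ± 0.16 (adjusted p = 6.66e-06), and the xenobiotic receptor gene Nr1i3 (CAR) was lower in inflamed mucosa at -0.90 ± 0.11 (adjusted p = 5.91e-05).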

How the data were processed

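RNA of 5 adenocarcinomas, 4 samples of inflamed mucosa and 4 of normal mucosa was hybridised to 13 arrays. The authors deposited log2 RMA values (log2 expression per transcript cluster, 35556 clusters) which came from Expression Console 1.1 after scanning with Command Console 2.0, per the labels and the design text. Partek is also listed among the tools in the submitters' processing notes, with no step given. RMA normalises arrays to one distribution, which removes differences in total RNA and compresses differences of dim genes; array medians were 6.41 to 6.59, and the number of arrays limits the precision. No background measure per probe was used here; the highest reading of a transcript absent by sex, from Xist on male arrays and 3 Y-linked genes on female arrays, was 5.57.

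Platform annotation named 1 gene for 21789 clusters, several for 1621 and none for 12146, and 21698 symbols were updated by Entrez ID through a RefSeq table of GRCm38.p6. The highest-mean cluster was taken for each of 19938 genes. In R 4.3.3, limma 3.58.1 (lmFit and eBayes) fitted 1 coefficient per group over all 13 arrays, with Benjamini-Hochberg adjustment over all genes, a threshold of 0.05 and no filter on dim genes; differences are log2 ± SE. The pipeline was tested on simulated data. Promoter sequences were from RefSeq (GRCm38.p6).

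Genes and lists were chosen with earlier results of these data known. Every gene of the set is named. Values per array are given for the 5 called genes with the largest rise and the 5 with the largest fall in each comparison, and for genes called in opposite directions. For related lists, up to 3 called genes per list, comparison and direction were eligible to be named. The pairing of adenocarcinoma and inflamed arrays rests on their shared numbers, with correlations of deviations from group means of 0.198 to 0.387 over 4 pairs. Deviations of normal arrays and of their same-numbered partners correlated at -0.126 to 0.0413, and no paired comparison was made with normal arrays. The replicate block over all arrays still grouped normal arrays with the arrays of the same number. These correlations give no basis for that grouping, so calls lost or gained under that block are to be read with caution. Alternatives covered array scaling, the replicate block, sex, the fit, the filter on dim genes, the choice of cluster and leaving out each array.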

Additional observations from a re-analysis of the deposited data

Results flagged for a closer look

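Single arrays stood apart from their group for 9 of 111 combinations of gene and group, by the gap to the nearest array relative to the range of the group; chance alone would mark about 1 in 20. Among adenocarcinomas, Gsto1 read 11.87 on adenocarcinoma 2, above the next array at 11.48, and Tpmt read 8.46 on adenocarcinoma 6, below the next at 9.50. Among inflamed arrays, Gstm5 read 8.67 on inflamed 3, below the next at 8.97, and Gstt1 read 8.996 on inflamed 4, above the next at 8.79.

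Among normal arrays, Gsto1 read 12.20 on normal 1, above the next at 11.45, and Adh1 read 12.83 on the same array, below the next at 13.07. Normal 1 also had the high squamous epithelium score. Adenocarcinoma 2, which stood apart for Gsto1 as well, had the highest squamous score of the tumours, 8.25 against 6.36 to 7.20. Any link was not tested. Sult1d1 read 11.11 on normal 6, below the next at 11.67, Ugt2b5 read 4.58 on normal 4, above the next at 3.74, and Nqo1 read 8.39 on normal 4, above the next at 7.35.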

How the results depend on the processing

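No called difference changed sign under any alternative. Of the 25 genes called in adenocarcinoma against normal mucosa, 20 stayed called in every alternative and Adh1, Aldh3a2, Gstm1, Gstm3 and Nqo1 did not. Of the 14 called in inflamed against normal mucosa, 8 did and Ces2e, Gstm5, Gsto1, Gstt1, Mgst3 and Ugt2b34 did not. Of the 12 called in adenocarcinoma against inflamed mucosa, 8 did and Aldh1b1, Gsta4, Hsd17b2 and Mgst3 did not. The number higher in inflamed than in normal mucosa was 1 in place of 2 with the replicate block over all 13 arrays, with sex as a covariate, with those groups alone, with median centring and without normal 1 and 6 (an alternative chosen after seeing the data). Over all genes, 2189 to 2588 were called higher under those alternatives, in place of 2730. With each array left out, the number in the set was 1 to 2, beside 2133 to 2762 over all genes. Values relative to the epithelial list gave 7 lower genes in place of 12 in inflamed against normal mucosa and 17 in place of 9 in adenocarcinoma against inflamed mucosa, with 3.16% and 10.5% of all genes lower in place of 13% and 4.21%; that scaling moved the median of all genes by 0.12, 0.25 and -0.13 in the 3 comparisons. The number higher in adenocarcinoma than in inflamed mucosa, 3 (2.91% of all genes), ran from 1 to 4 with each array left out, for which the all-gene share is not given here. The lower ones in adenocarcinoma against normal mucosa ran from 18 to 20, beside 2543 to 4374 over all genes, in place of 3867. The epithelial scaling subtracts the same value from every gene of an array, so all differences of a comparison move by the same amount. The cause of the other shifts was not tested.

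With the replicate block over same-numbered adenocarcinoma and inflamed arrays, 12 genes were lower and 4 higher in adenocarcinoma (5.89% and 3.67% of all genes, beside 4.21% and 2.91% without the block), and Ces2a, Gstm3, Nqo1 and Sult1c2 were gained; no call was lost under that pairing. With replicate number as a block over all 13 arrays, 21 were lower and 5 higher in adenocarcinoma than in normal mucosa (16.8% and 16.2% of all genes), and 10 lower and 2 higher than in inflamed mucosa (3.62% and 2.31%). That block also grouped normal arrays with same-numbered arrays, although their deviations were hardly correlated. A difference between females and males in the effect was called for 0 genes of the set in each comparison (limma interaction). Over all 19938 genes, 1, 1 and 0 were called. At an unadjusted p below 0.05, the genes of the set numbered 1, 1 and 0. Inflamed 1 was the only female inflamed array, and these counts do not show that the effects are alike in both sexes.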

Other observations

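Other hydrolases and transferases moved in several directions. Over all genes, 19.4% were lower and 16.4% higher in adenocarcinoma than in normal mucosa, and 13% and 13.7% in inflamed against normal mucosa. Adenocarcinoma against inflamed mucosa had 4.21% lower and 2.91% higher. Of 36 measured genes on that list, 13 were lower and 3 higher in adenocarcinoma than in normal mucosa, 9 lower and 5 higher in inflamed than in normal mucosa, and 5 lower and 1 higher in adenocarcinoma than in inflamed mucosa. Ces2b, a relative of Ces2a and Ces2e, was lower in adenocarcinoma (log2 difference -2.45 ± 0.19, adjusted p = 6.51e-07) and inflamed mucosa (-1.77 ± 0.20, adjusted p = 3.11e-05) than in normal mucosa. Tst, the mitochondrial sulfurtransferase that detoxifies cyanide, was lower in adenocarcinoma than in normal mucosa (-1.62 ± 0.12, adjusted p = 5.96e-07). Pon2, an intracellular lactonase, was higher in adenocarcinoma than in normal mucosa (0.93 ± 0.094, adjusted p = 6.99e-06) and than in inflamed mucosa (0.61 ± 0.094, adjusted p = 0.0017).

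Of 58 other aldehyde, alcohol, carbonyl and steroid enzyme genes, 19 were lower and 11 higher in adenocarcinoma than in normal mucosa, 11 lower and 5 higher in inflamed than in normal mucosa, and 5 lower and 2 higher in adenocarcinoma than in inflamed mucosa. The shares of all genes, lower and higher, were 19.4% and 16.4%, 13% and 13.7%, and 4.21% and 2.91% in the same order. Aldh1a3, which like Aldh1a1 makes retinoic acid, was higher in adenocarcinoma by 3.96 ± 0.31 (adjusted p = 7.48e-07) against normal and by 3.05 ± 0.31 (adjusted p = 9.62e-05) against inflamed mucosa, whereas Aldh1a1 was lower against normal mucosa. Dhrs9, a retinol and steroid dehydrogenase, was higher than in normal mucosa by 3.61 ± 0.49 (adjusted p = 8.62e-05) in adenocarcinoma and by 2.27 ± 0.51 (adjusted p = 0.00579) in inflamed mucosa. Fmo5, a flavin monooxygenase, was lower by the same comparisons, at -2.52 ± 0.27 (adjusted p = 1.35e-05) and -1.53 ± 0.29 (adjusted p = 0.00179). Among 14 other glutathione transferase genes, 2 were higher and 3 lower against normal mucosa in each diseased tissue, and 1 was higher in adenocarcinoma than in inflamed mucosa. That gene, Ptges, the inducible prostaglandin E synthase of the same membrane family as Mgst1, was higher by 2.29 ± 0.16 (adjusted p = 2.95e-07) in adenocarcinoma and 1.38 ± 0.17 (adjusted p = 6.39e-05) in inflamed mucosa against normal, and by 0.91 ± 0.16 (adjusted p = 0.00361) between them.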
